A study of Danio rerio with 8 samples.

Results

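The let-7 genes lettered d to j were followed in small RNA libraries of zebrafish larvae at 7 dpf. They were taken as every row of the count table whose symbol is dre-let-7 and a letter from d to j, which gave 9 of the 32520 genes listed and 9 of the 434 miRNA genes. These are dre-let-7d-1 (ENSDARG00000082825), dre-let-7d-2 (ENSDARG00000080038), dre-let-7e (ENSDARG00000081975), dre-let-7f (ENSDARG00000082942), dre-let-7g-1 (ENSDARG00000083280), dre-let-7g-2 (ENSDARG00000083425), dre-let-7h (ENSDARG00000081815), dre-let-7i (ENSDARG00000082738) and dre-let-7j (ENSDARG00000080515). The symbols carry 7 letters, and letters d and g have 2 genes each.

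Each library was made from a pool of 50 wildtype (AB strain) larvae. Larvae of the 4 S- libraries came from undisturbed adult control males, and larvae of the 4 S+ libraries came from males put through 21 days of chronic stress by handling and varied acute stressors. All mothers were undisturbed control females, and the larvae themselves were not stressed. Each library came from its own crossing of the same experimental batch, so one pool stands for one crossing and differences between siblings cannot be seen. The comparison of S+ with S- asks whether small RNA levels in the progeny differed with the father's exposure.

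The let-7 miRNAs were first described in Caenorhabditis elegans, where they time the passage from larval to adult cell fates. Their hairpin precursors are cut by Drosha and then by Dicer, and the mature strand guides an Argonaute protein to partly matching sites in mRNAs. The proteins LIN28A and LIN28B bind the let-7 precursor in mammals and block its processing, so mature let-7 accumulates as cells differentiate. In mammals the RAS and MYC genes and HMGA2 are well known targets. The letter after let-7 names a variant of the mature sequence, the members of the family being alike in the seed that pairs with targets, and a number after the letter names a separate gene for the same mature sequence. Because the variants are so alike, a read can fit several of these genes, and the authors' counting program, RSEM, divides such reads among them. The count of a single row is therefore uncertain, and the sum of a letter's copies less so. Sequences of these genes were not used here. RefSeq gave hairpin lengths and which genes are neighbours.

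Total counts ranged from 3492945 to 4943297 per library, with the highest total in S+ replicate 2, and miRNA genes held between 96.2% and 97.9% of them. Of the 17 miRNA names fixed as markers of larval muscle, neurons, liver, gut, skin, blood and pancreas, 15 were in the table under those symbols. All 15 were counted in every library. None of these 15 was called between the groups by limma, where dre-mir-124-1 and dre-mir-133a-1 had the lowest and highest log2 fold changes at -1.19 and 2.25. Both had few counts, with 36 to 151 per library for dre-mir-124-1 and 5 to 71 for dre-mir-133a-1. The other neuron and muscle markers of this list ran from -0.41 for dre-mir-124-2 to 0.31 for dre-mir-206-1. Outside the list, dre-mir-124-4 had -0.97 (limma adjusted p = 0.166), dre-mir-124-5 had 0.097 and dre-mir-124-6 had 0.071. Of the muscle miRNAs outside it, dre-mir-133a-2 had -0.14, dre-mir-133b -0.30, dre-mir-133c -0.30 and mir1-1 0.19. Dre-mir-133a-1 held a mean of only 0.0063% of the dre-mir-133a counts in S- and 0.044% in S+. Counts were scaled to CPM, counts per 1000000 of the library's normalized size (TMM factors). A row was called different at a Benjamini-Hochberg adjusted p below 0.05 over all rows tested and an absolute log2 fold change above 0.58, with limma after the voom transformation.

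The 9 let-7d to let-7j genes were a small part of the miRNA pool. Their sum averaged 2990 CPM in S- (SD 82.5) and 3286 CPM in S+ (SD 537), with 4 libraries in each group here and throughout. They held between 0.279% and 0.349% of all miRNA counts in the 8 libraries. Among all 18 rows named dre-let-7, they held a mean of 42.9% of the counts in S- (SD 0.760) and 42.1% in S+ (SD 0.874), the rest going to let-7a, let-7b and let-7c.

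All 9 genes were counted in every library, with 71 counts at the lowest (dre-let-7e in S+ replicate 4) and 6107 at the highest (dre-let-7g-1 in S+ replicate 2). Levels of different genes were set side by side per 100 bases of hairpin, with lengths of 83 to 116 bases from RefSeq (assembly GRCz12tu), where all 9 symbols were found. Whether small RNA counts grow with hairpin length was not tested. On the scale per length dre-let-7g-1 stood first, with a mean of 1057 ± 201 CPM per 100 bases (SD over 8 libraries). Dre-let-7d-2 followed at 691 ± 45.8 and dre-let-7d-1 at 537 ± 49.0, and each gene lay above the next in all 8 libraries. Dre-let-7g-2, at 456 ± 82.6 CPM per 100 bases, lay below dre-let-7d-1 in 7 of 8 libraries. The middle of the order held dre-let-7j at 219 ± 44.2 and dre-let-7i at 189 ± 35.8, and this pair did not differ beyond its spread. The first was higher in 6 of 8 libraries, with a log2 ratio of 0.20 ± 0.33 (SD). In S- the place of dre-let-7j above dre-let-7i depended on the division by length, as plain CPM averaged 191 and 203. Otherwise the order of the group means was the same in plain CPM. The plain ratio of let-7i to let-7j counts averaged 1.07 in S- (SD 0.119) and 0.963 in S+ (SD 0.323). Near the bottom, dre-let-7f at 80.6 (63.8 to 115 over the libraries) and dre-let-7h at 65.5 ± 5.42 CPM per 100 bases were close too, with a log2 ratio of 0.28 ± 0.25 (SD) and the first higher in 7 of 8. Dre-let-7e was last at 23.1 ± 3.45, below dre-let-7h in every library by 2.86-fold. Letters d and g thus carried the group, with 79.5% to 82.5% of its counts in the S- libraries and 82.8% to 85.9% in the S+ libraries.

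**Figure D1:**
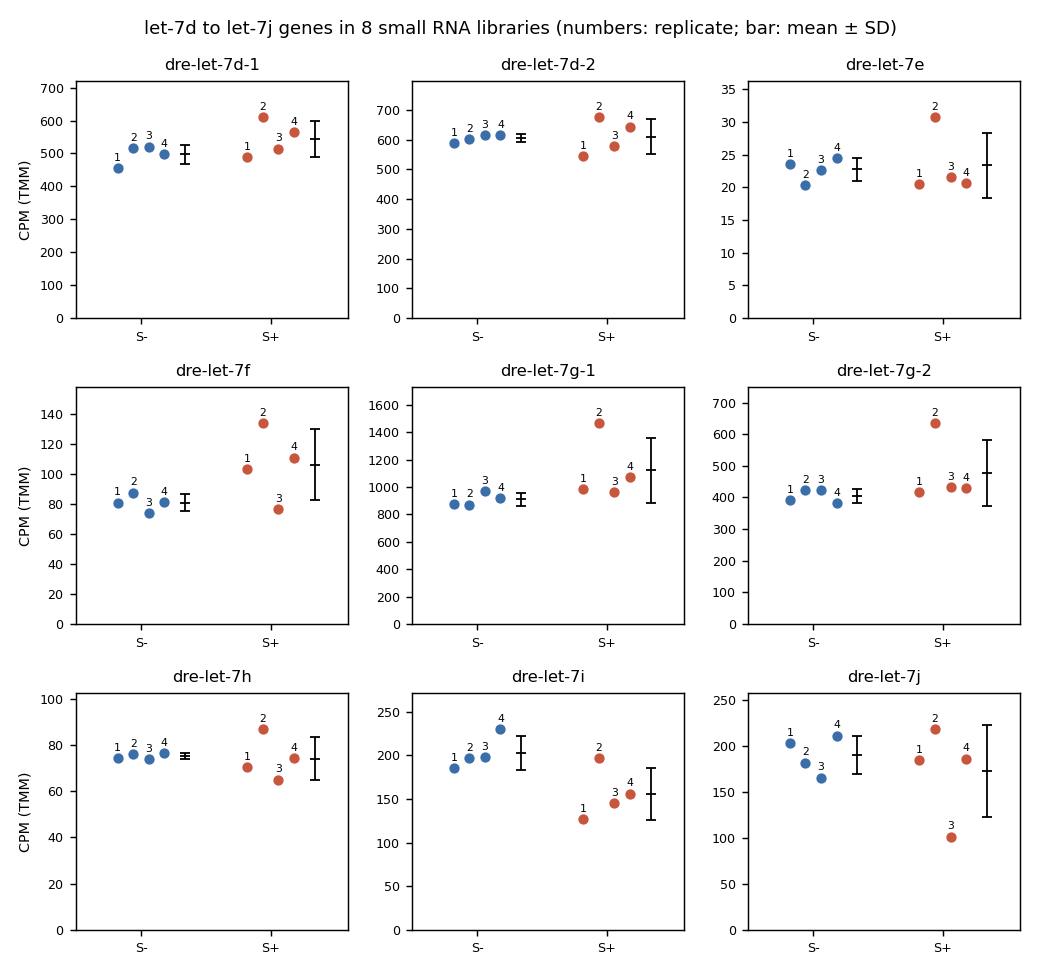
CPM with TMM factors (y axes, from 0) of each let-7d to let-7j gene in the 4 S- (blue) and 4 S+ (red) libraries, with replicate numbers over the points and the mean ± SD as a black bar. The groups overlap in all 9 panels, and on this scale S+ replicate 2 is the highest of the 8 libraries in every panel but that of dre-let-7i, while scaled by library size it is so for 4 of the 9.

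Between S+ and S- larvae, 0 of the 9 genes were called by limma, against 0.307% of the 651 rows tested. All 9 had passed the filter on low counts. In pools of whole larvae, fewer cells of a type and less RNA per cell cannot be told apart. The 9 fold changes ran from -0.39 to 0.35 on the log2 scale, with a median of 0.025, while the median of all rows tested was -0.023. Of the 9, 6 were higher and 3 lower in S+, where 46.5% of all rows were higher. The S- and S+ values overlapped for each of the 9, as they did for all but 7.68% of the rows tested. At an unadjusted p below 0.05, 1 of the 9 stood out, dre-let-7i, beside 12.4% of all rows. The count of called genes was 0 with edgeR's quasi-likelihood test and with DESeq2 as well. Each of these tools gave 1 of the 9 at an unadjusted p below 0.05, beside 81 and 88 of the 651 rows. Without S+ replicate 2 the count of called genes was also 0 with limma. There 1 of the 9 was below that p, beside 71 of 695 rows. At that p, limma gave 3 of the 9 when fitted to miRNA genes only (dre-let-7f, dre-let-7g-1 and dre-let-7i), beside 56 of 271 rows. Without a filter it gave 0 of the 9, beside 1325 of 18338 rows.

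Dre-let-7i was the member with the smallest p. It had 185, 197, 198 and 230 CPM in S- replicates 1 to 4 and 127, 197, 145 and 156 CPM in S+ replicates 1 to 4. S+ replicates 1, 3 and 4 lay below all S- libraries, and S+ replicate 2 fell within the S- range. The log2 fold change was -0.39 (standard error 0.165, 95% interval -0.76 to -0.020), which is 1.31-fold lower, with an unadjusted limma p of 0.0409 and an adjusted p of 0.352. It did not pass the threshold. Scaled by library size alone, its S+ values were all below its S- values, and it was not called either. The share of all rows without overlap was not computed for that scaling.

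Dre-let-7f had the largest positive value. In S- it had 81.0, 87.6, 74.0 and 81.1 CPM, and in S+ it had 103, 134, 76.6 and 111 CPM. S+ replicate 3 lay inside the S- range and the other 3 S+ libraries lay above it. The log2 fold change was 0.35 (95% interval -0.091 to 0.79, limma adjusted p = 0.504), so the data leave room for a level from 0.939 to 1.73 times that of S-. Without S+ replicate 2 it was 0.22.

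The let-7g genes were the most abundant. Dre-let-7g-1 had 875, 872, 968 and 920 CPM in S- and 983, 1466, 962 and 1071 CPM in S+, and its log2 fold change was 0.28 (95% interval -0.058 to 0.62, limma adjusted p = 0.468). Dre-let-7g-2 had 391, 424, 423 and 382 CPM in S- and 416, 635, 433 and 430 CPM in S+, and the fold change was 0.22 on the log2 scale (95% interval -0.14 to 0.57, limma adjusted p = 0.581). In both genes S+ replicate 2 was the highest library, and the other S+ libraries lay in or above the S- range. Without S+ replicate 2 the log2 fold changes were 0.13 and 0.063. Scaled by library size, S+ replicate 3 came close to S+ replicate 2, at 1123 against 1239 CPM for dre-let-7g-1 and 506 against 537 for dre-let-7g-2. With TMM factors from miRNA genes only, all S+ values of dre-let-7g-1 lay above all S- values. They overlapped with the main TMM factors, by library size and with DESeq2 size factors. The share of all rows without overlap was computed for the main TMM factors only. Summed by letter, let-7g had 1267, 1296, 1392 and 1302 CPM in S- and 1398, 2101, 1396 and 1501 CPM in S+. All S+ sums lay above all S- sums, by 1396 against 1392 CPM at the closest. Scaled by library size alone or by the size factors of DESeq2, the groups overlapped. With TMM factors of miRNA genes all S+ sums again lay above all S- sums. In the fit on the table whose miRNA copies were summed by name, the let-7g sum changed by 0.26 on the log2 scale (95% interval -0.067 to 0.60, limma adjusted p = 0.479), and by 0.095 without S+ replicate 2. No letter sum was called there by limma, where 0.169% of the 592 names were. Of the 7 letters, 1, let-7i, had an unadjusted p below 0.05, as did 75 of the 592 names. Across these names, 7.6% did not overlap between the groups, and among the 7 letters let-7g alone did not.

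The let-7d genes moved little. Dre-let-7d-1 had 456, 516, 520 and 498 CPM in S- and 488, 610, 515 and 564 CPM in S+. Dre-let-7d-2 had 589, 603, 617 and 617 CPM in S- and 545, 676, 577 and 644 CPM in S+. The groups overlapped for both genes, and for the second the S+ values lay on either side of all S- values. Their log2 fold changes were 0.12 (95% interval -0.15 to 0.40) and 0.0044 (95% interval -0.26 to 0.27), with limma adjusted p values of 0.709 and 0.989, and the sign of the second changed with the normalization. The let-7d sum averaged 1104 CPM in S- (SD 40.3) and 1155 CPM in S+ (SD 114), which is 0.062 on the log2 scale (95% interval -0.20 to 0.33, limma adjusted p = 0.863).

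The 3 other members are single genes of low or middling level. Dre-let-7j had 203, 182, 166 and 211 CPM in S- and 184, 218, 102 and 186 CPM in S+. S+ replicate 3 was the lowest of the 8 libraries and the other 3 S+ libraries lay in or above the S- range. Its log2 fold change of -0.20 (95% interval -0.73 to 0.32, limma adjusted p = 0.743) became 0.042 without S+ replicate 3. Dre-let-7h had 74.4, 76.1, 74.0 and 76.5 CPM in S- and 70.4, 86.9, 65.0 and 74.3 CPM in S+. With TMM factors its coefficient of variation in S- was the smallest of the 9, at 1.62%, below its counting error of 5.88%. By library size it was 7.30%, and dre-let-7j had the smallest at 3.74%. The log2 fold change of dre-let-7h was -0.034 (95% interval -0.39 to 0.32, limma adjusted p = 0.937). Dre-let-7e had 23.5, 20.3, 22.6 and 24.5 CPM in S- and 20.5, 30.7, 21.5 and 20.7 CPM in S+. With 71 to 128 counts per library its counting error alone was about 10.7% in S- and 10.1% in S+, and its log2 fold change of 0.025 (95% interval -0.46 to 0.51, limma adjusted p = 0.969) was the least precise among the 9 after that of dre-let-7j. For these 3 genes no difference was detectable at this depth and spread, and the sign of dre-let-7h and dre-let-7e changed with the settings used.

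**Figure D2:**
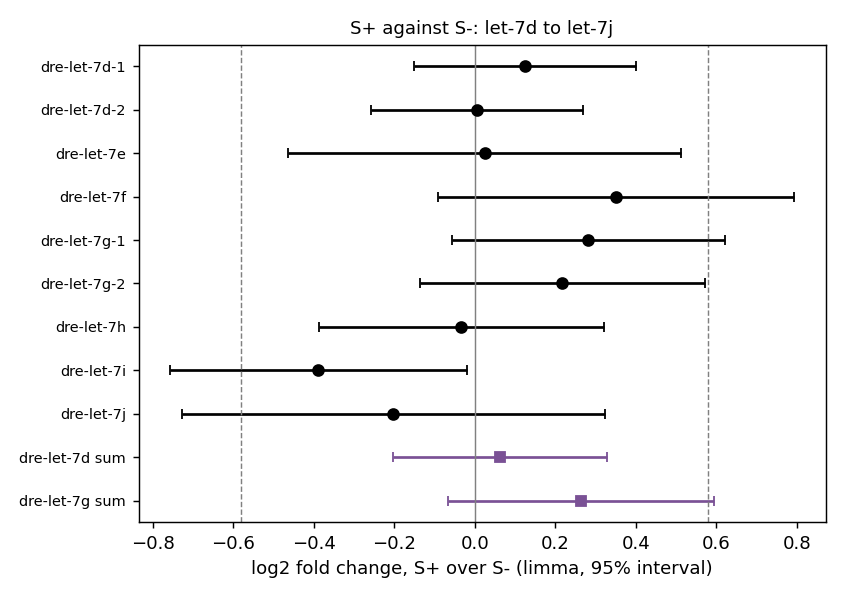
Log2 fold change of S+ over S- (x axis) with its 95% interval from limma for each of the 9 genes (black circles) and for the letter sums of let-7d and let-7g (purple squares), with dashed lines at the fold change threshold of 0.58 in either direction. The values run from -0.39 for dre-let-7i to 0.35 for dre-let-7f, and only the interval of dre-let-7i leaves out 0.

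How the libraries ranked for these genes depended on the scaling. S+ replicate 2 had the lowest TMM factor of the 8 libraries (0.845) and S+ replicate 3 the highest (1.17). In CPM with TMM factors, the sum of the 9 genes was 4054 in S+ replicate 2, against 2936, 2898 and 3258 CPM in S+ replicates 1, 3 and 4 and 2879 to 3063 CPM in S-. Per library size alone, the S+ replicates 1 to 4 had 2972, 3426, 3382 and 3215 CPM and the S- replicates 1 to 4 had 2735, 3145, 3333 and 2825 CPM. S+ replicate 2 thus stood apart with TMM factors, as it did with DESeq2 size factors (4036), and lay close to S+ replicate 3 by library size. It was the highest of the 8 libraries for 8 of the 9 genes with TMM factors. Of all rows tested 12.7% were highest there, and of the 271 miRNA rows 21.4%. The same held for 8 of the 9 genes with DESeq2 size factors and for 7 with TMM factors of miRNA genes. By library size (4.61% of all rows) or as a share of miRNA counts it held for 4. The sum of the let-7a to let-7c rows was highest there as well, at 5469 CPM with TMM factors and 4622 CPM by library size, where S- replicate 3 had 4532 CPM. The groups overlapped in the 9-gene sum, whose log2 difference was 0.12 with TMM factors and 0.11 by library size. With TMM factors and without S+ replicate 2 it was 0.018. S+ replicate 2 was also the most deeply sequenced library, and the part of its depth in these values was not tested.

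The spread among libraries turned with the scaling too. With TMM factors the coefficient of variation lay between 1.62% and 10.9% over the 9 genes in S- and between 9.84% and 28.9% in S+. It was higher in S+ for each of the 9, against 47% of all rows tested. The medians were 5.90% in S- and 21.0% in S+. Without S+ replicate 2 the coefficient was higher in S+ for 7 of the 9 (43.6% of all rows), and the median in S+ was 7.45%. With all libraries it was higher in S+ for 9 of the 9 with DESeq2 size factors (46.2% of all rows). With TMM factors of miRNA genes it was higher in S+ for 8 (46.9%). By library size it was higher in S+ for 5 of the 9, with medians of 9.16% in S- and 10.1% in S+. As a share of miRNA counts it was higher in S+ for 4 of the 9. By library size 53.6% of all rows were wider in S+, and for the share of miRNA counts no separate figure is given. For the 9-gene sum the coefficient was 2.76% in S- and 16.3% in S+ with TMM factors, and 9.25% and 6.34% by library size. Which group had the wider spread was thus set by the scaling for several genes and for the sum. Dre-let-7d-2, dre-let-7e, dre-let-7i and dre-let-7j had the wider spread in S+ under all 5 scalings. By library size these were 8.64% against 9.35%, 5.82% against 12.6%, 9.16% against 12.1% and 3.74% against 19.8%. Dre-let-7j had 10.9% against 28.9% with TMM factors, with S+ replicate 3 as its lowest library.

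**Figure D3:**
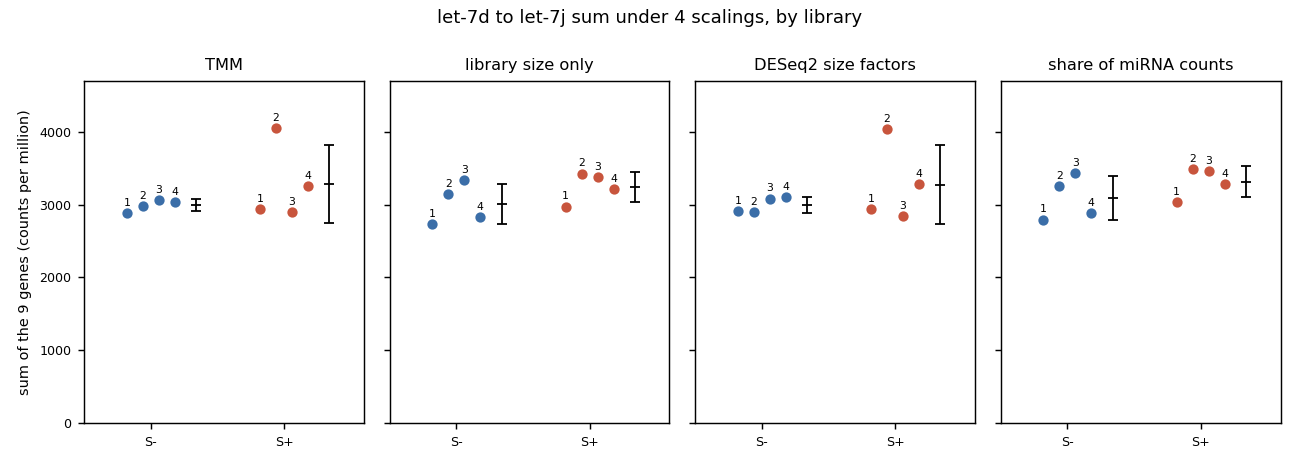
Sum of the 9 let-7d to let-7j genes in CPM (y axis, from 0) in each S- (blue) and S+ (red) library under 4 scalings, with replicate numbers over the points and the mean ± SD as a black bar. S+ replicate 2 stands at 4054 with TMM factors and at 3426 by library size, where S+ replicate 3 stands at 3382.

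Ratios between members within a library do not depend on the normalization. They do rest on how RSEM divided reads that fit several of these genes, and the part of that division was not tested. The ratios were added after values had been seen. Of the 21 ratios between 2 of the 7 letters, 10 did not overlap between S- and S+, while among all 21945 ratios of 2 tested miRNA names 13.1% did not. The 21 ratios share their letters and are not independent, and no test was made of them. How often ratios within other miRNA families overlap was not computed. Let-7i took part in 5 of the 10, with ratios to let-7d, let-7e, let-7f, let-7g and let-7h that put it lower in every S+ library than in any S- library, and only its ratio to let-7j overlapped. Let-7g took part in 4 of the 10, let-7f and let-7h in 3 each, let-7d and let-7e in 2 each and let-7j in 1.

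The widest shift was that of let-7f to let-7i, a pair singled out after its values had been seen. For each count of let-7i there were 0.437, 0.444, 0.373 and 0.352 counts of let-7f in S- replicates 1 to 4 and 0.815, 0.680, 0.528 and 0.711 in S+ replicates 1 to 4. The groups were well apart, and the ratio was 1.69-fold higher in S+. Let-7g to let-7h came to 17.0, 17.0, 18.8 and 17.0 in S- and 19.9, 24.2, 21.5 and 20.2 in S+, a 1.22-fold difference without overlap. As shares of the 9-gene counts, let-7d, let-7e, let-7f and let-7j overlapped between the groups and let-7g, let-7h and let-7i did not. These shares are parts of one total, so they are tied to one another and restate the shifts seen in the ratios. How often such shares overlap in other sets of miRNAs was not computed. Let-7i held a mean of 6.77% of the 9-gene counts in S- (SD 0.536) and 4.74% in S+ (SD 0.299). Let-7g held 43.9% in S- (SD 1.10) and 48.4% in S+ (SD 2.44).

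The copies of let-7d and let-7g split the counts of their letter in shares that varied by 3.81 and 4.07 percentage points over the 8 libraries, the 13th and 14th smallest ranges among the 23 miRNA names with exactly 2 tested copies. Dre-let-7d-1 held 43.6%, 46.1%, 45.8% and 44.7% of the let-7d counts in S- replicates 1 to 4 and 47.2%, 47.4%, 47.1% and 46.7% in S+ replicates 1 to 4. All S+ shares were higher than all S- shares, although the means differed by only 2.09 percentage points. Among those 23 names, 13% showed shares without overlap. Dre-let-7g-1 held a mean of 69.1% of the let-7g counts in S- (SD 1.41) and 70.1% in S+ (SD 0.999), and here the groups overlapped. Both copies of a letter give the same mature miRNA by name, and the part of the authors' division of reads in these proportions was not tested.

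**Figure D4:**
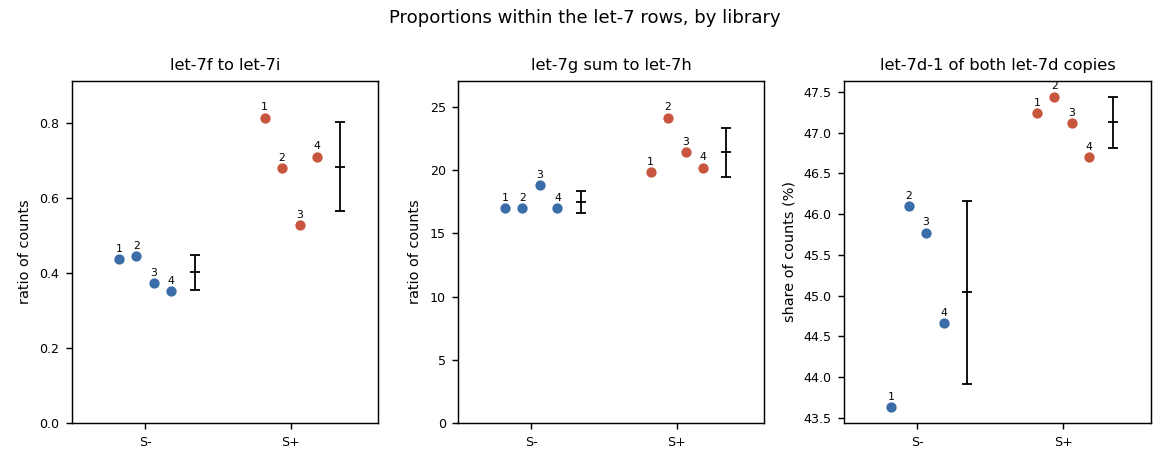
Ratio of let-7f to let-7i counts (left, y axis from 0), ratio of summed let-7g to let-7h counts (middle, y axis from 0) and share of dre-let-7d-1 in the counts of both let-7d copies (right, percent, y axis not from 0) in each S- (blue) and S+ (red) library, with replicate numbers and the mean ± SD as a black bar. In all 3 panels every S+ point lies above every S- point, from 0.352 to 0.444 against 0.528 to 0.815 in the left one.

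Neighbouring miRNA genes are often cut from one primary transcript. In the RefSeq annotation dre-let-7h lies within 10 kb of dre-let-7g-2, dre-let-7f within 10 kb of dre-let-7a-1, and dre-let-7e within 10 kb of dre-let-7a-5, while no miRNA gene lay as near to the other members. Per 100 counts of dre-let-7g-2 there were 19.0, 17.9, 17.5 and 20.0 counts of dre-let-7h in S- replicates 1 to 4 and 16.9, 13.7, 15.0 and 17.3 in S+ replicates 1 to 4. All S+ values were below all S- values, by 17.3 against 17.5 at the closest. Of all ratios of 2 tested miRNA names, 13.1% did not overlap, and the share among neighbouring genes was not computed. The counts of this pair are also part of the let-7g to let-7h ratio above. Per 100 counts of dre-let-7a-1, dre-let-7f averaged 5.70 in S- (SD 0.367) and 6.37 in S+ (SD 0.419). Per 100 counts of dre-let-7a-5, dre-let-7e averaged 7.09 in S- (SD 0.501) and 6.41 in S+ (SD 1.03). Both of these overlapped between the groups.

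Among the 252 miRNA genes tested outside the let-7 family, the 3 whose profile over the 8 libraries was nearest to that of the 9-gene sum were dre-mir-182, dre-mir-30a and dre-mir-9-4. The root mean square difference of their centred log2 CPM from the sum was 0.102, 0.105 and 0.117, where the median gene was 0.265 away. These distances were computed with TMM factors only, where the sum was highest in S+ replicate 2. The sum itself varied little, with an SD of 0.16 on the log2 scale, so a gene can lie near it by varying little too. Nearness did not mean an even profile, as dre-mir-30a had 454 CPM in S- (SD 23.3) and 465 CPM in S+ (SD 110). None of the 3 was called, and their log2 fold changes were 0.15, 0.0061 and 0.048.

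The mRNAs of the let-7 pathway could not be followed in these libraries. Of 31 names listed for let-7 processing and targets, 23 were in the table and 1 passed the filter on low counts, dgcr8, which encodes the partner of Drosha and had 4 to 17 counts per library. It was not called, at 0.40 on the log2 scale (limma adjusted p = 0.743). The genes lin28a and lin28b, whose proteins hold back let-7 processing in mammals, had at most 2 and 1 counts in a library, and hmga2 and trim71 had at most 1. These are small RNA reads counted to mRNA genes, and which RNA they came from was not tested. No mRNA level of these genes can be read from them.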

How the data were processed

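Small RNA libraries of 4 S- and 4 S+ pools were analysed. Groups and replicate numbers came from the sample labels, and all 8 value columns were matched to a sample by its label. Per the labels and the paper's methods, the authors trimmed reads with Trim Galore 0.6.6 (minimum length 16 bases), mapped them to GRCz11 with STAR 2.7.8a and deposited RSEM 1.3.0 estimated counts per Ensembl gene, as whole numbers and not normalized, so that rounding changed nothing. Reads are not known to have been deduplicated, and counting errors cover counting alone. The methods describe a stranded mRNA kit in one paragraph and small RNA reads in the next.

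From the deposited counts, S+ was compared with S- by limma 3.58.1 after voom (R 4.3.3), the study's test, on the whole table, with TMM factors and filterByExpr (minimum count 10) of edgeR 4.0.16. P-values set the difference between the groups against the spread between crossings within a group. Per the paper's methods the S+ and S- males were housed in separate tanks, so tank and exposure cannot be told apart. A second fit added up the copies of each dre-let-7 or dre-mir name. Ratios, shares and the sum over members were given as values without a test. Alternatives were DESeq2 1.42.0, the quasi-likelihood test of edgeR, other scalings and filters, a fit of miRNA genes alone, a replicate block, and each library left out. The fits were tested on simulated counts.

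All members and letter sums are named, with neighbouring miRNA genes, the 3 genes of nearest profile and fixed lists of pathway and marker genes. Members and lists were chosen with earlier results of these data known. The tables of letter ratios, copy shares, spread and S+ replicate 2 by scaling were added after values had been seen. RefSeq (GRCz12tu) gave names, neighbours and hairpin lengths only.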

Additional observations from a re-analysis of the deposited data

Results flagged for a closer look

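With TMM factors, 3 values of S+ replicate 2 lay far from those of the other S+ libraries, by a gap of 0.851 to 0.919 of the group's range (Dixon's test at the 95% level). Dre-let-7e had 30.7 CPM there, and the other 3 libraries of the group had 20.5 to 21.5 CPM. Dre-let-7g-2 had 635 CPM there, and the others had 416 to 433 CPM. The let-7g sum, which contains dre-let-7g-2, had 2101 CPM there, and the others had 1396 to 1501 CPM. In all, 28 groups of 4 values were examined, some of them sharing genes, and chance gives such a gap in about 1 of 20. These gaps depended on the scaling. With DESeq2 size factors dre-let-7e and dre-let-7g-2 again lay far apart in S+ replicate 2, and with TMM factors of miRNA genes dre-let-7g-2 and the let-7g sum did. By library size none of these 3 values was as far apart. The 1 value that was belonged to dre-let-7j in S+ replicate 3. It had 119 CPM there, against 184 to 187 CPM in the rest of the group. With TMM factors of miRNA genes, dre-let-7j in S- replicate 3 lay far apart too. As a share of miRNA counts, dre-let-7i in S- replicate 1 and dre-let-7j in S+ replicate 3 did.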

How the results depend on the processing

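No member and no letter sum was called under any alternative run. At an unadjusted p below 0.05 there were 0 to 3 of the 9 members, with 0 in 5 of the 8 fits that left out a library. The 3 came from the fit of miRNA genes only, where 56 of 271 rows were below that p. Of 176 values of single genes and of the let-7d and let-7g sums under the alternatives, 160 kept their direction and 16 changed sign, all of them uncalled. Dre-let-7d-2 came to -0.0061 with library size only, -0.0043 with DESeq2 size factors, -0.067 without a filter and -0.041 with at least 1 CPM in at least 4 libraries. Dre-let-7e came to -0.044 without a filter and -0.016 with at least 1 CPM in at least 4 libraries, and dre-let-7h to 0.0046 with miRNA genes only. With each library left out, log2 fold changes ran from -0.057 to 0.045 for dre-let-7d-2, -0.12 to 0.077 for dre-let-7e, -0.12 to 0.025 for dre-let-7h, -0.35 to 0.042 for dre-let-7j, -0.021 to 0.11 for the let-7d sum, 0.22 to 0.50 for dre-let-7f, 0.13 to 0.34 for dre-let-7g-1, 0.063 to 0.27 for dre-let-7g-2, 0.095 to 0.31 for the let-7g sum (the lowest of each without S+ replicate 2), and -0.52 to -0.31 for dre-let-7i, whose adjusted p ran from 0.178 to 0.589 over all alternatives. The log2 difference in the 9-gene sum was 0.11 with library size only, 0.11 with DESeq2 size factors and 0.16 with miRNA genes only, and ran from 0.018 (without S+ replicate 2) to 0.18 with a library left out.

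The count of called rows over the whole table, 2 here, was 30 with DESeq2, 1 with library size only, 0 with DESeq2 size factors (79 at an unadjusted p below 0.05), 79 without a filter, 1 with at least 1 CPM in at least 4 libraries and 7 with miRNA genes only. It ran from 0 to 3 with a library left out, and was 0 without S- replicate 1 or 2 or S+ replicate 1 or 2 (71 to 78 at an unadjusted p below 0.05). The causes were not tested. With the replicate block it was 9, and 0 of the 9 members were called. Same-numbered libraries came from different crossings, their deviations correlated at 0.156, -0.159, 0.248 and 0.029, and 3 of 8 libraries correlated best with their own number, so the numbers were not taken as pairs. Dre-let-7e had the fewest counts, 71 to 128 per library. The values of S+ replicate 2 and of the spread by scaling were added after seeing the data.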

Other observations

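One further let-7 row falls outside the rule by its symbol. It is listed as MIRLET7A3 (ENSDARG00000083270) and paired with the name mirlet7a-7 in the table of gene names used here. Its log2 fold change was 0.30 (standard error 0.134, unadjusted limma p of 0.0475, adjusted p of 0.391). With its counts added to the let-7 family, the let-7d to let-7j genes held a mean of 33.4% of the let-7 counts in S- (SD 0.856) and 32.0% in S+ (SD 0.475), with 4 libraries each.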
